A study of Saccharomyces cerevisiae with 36 samples.

Results

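The 6 genes described here encode dehydrogenases that pass electrons into the mitochondrial respiratory chain of Saccharomyces cerevisiae without pumping protons. They were chosen by name, as the rows of NDI1 (YML120C), NDE1 (YMR145C), NDE2 (YDL085W), GUT2 (YIL155C), CYB2 (YML054C) and DLD1 (YDL174C), and are 6 of the 7127 features in each count table. Budding yeast has no proton-pumping complex I. Single-subunit flavin enzymes oxidise NADH in its place: Ndi1 takes NADH made in the matrix, and Nde1 and Nde2 take cytosolic NADH at the outer face of the inner membrane. Gut2, the FAD-dependent glycerol-3-phosphate dehydrogenase, also feeds ubiquinone, and completes a shuttle with the cytosolic glycerol-3-phosphate dehydrogenases. Cyb2 (flavocytochrome b2, which oxidises L-lactate and carries heme) and Dld1 (which oxidises D-lactate) are known to hand their electrons to cytochrome c, so the name "feeding quinone" describes 4 of the 6.

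RNA-seq and ribosome profiling (Ribo-seq, the sequencing of mRNA fragments protected by ribosomes, called footprints here) were done on the wild-type strain W303a and on a cth1Δcth2Δ strain. CTH1 and CTH2 (TIS11) encode RNA-binding proteins that are known to bind AU-rich elements downstream of the stop codon and to promote decay of mRNAs for iron-using proteins when iron is scarce. Cells of both strains were taken without chelator (0 h) and after 3 h and 6 h in 100 µM bathophenanthroline disulfonate (BPS), which binds ferrous iron. All 12 groups (2 assays, 2 strains and 3 times) had 3 libraries each, called biological replicates by the labels, and both assays used aliquots of the same lysates. All the cells were grown in Kaiser SC medium at 30°C, and the mutant is a deletion strain for which the number of isolates used is not given in the sources used here.

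Library totals ran from 113262 to 6571727 counts in RNA-seq and from 607936 to 28491058 in Ribo-seq. A count of 3 corresponded to between 0.462 and 22.2 CPM (counts scaled by the size of the library) in RNA-seq and between 0.111 and 4.31 CPM in Ribo-seq; this floor covers counting error only. In the mutant, CTH1 had 0 to 6 counts in every library. TIS11 rose in wild-type footprints to 1090 ± 137 CPM (SD, n = 3) at 6 h against 1.16 ± 1.49 CPM in the mutant (SD, n = 3), so the strain labels fit the deleted genes. At 0 h TIS11 did not tell the strains apart. Its footprints were then 6.33 ± 4.41 CPM in wild type and 5.99 ± 5.31 CPM in the mutant (SD, n = 3). CPM below are scaled by the trimmed mean of M values (TMM). They are relative to the library, so fewer cells with the RNA and less RNA per cell cannot be told apart.

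The element TTATTTAT, the canonical site of this protein family, was searched in the 300 nt that follow each stop codon, on the gene's own strand and in R64 coordinates. It was found in 412 of 6002 nuclear protein-coding genes (6.86%), in NDI1 and CYB2 among the 6, and in none of the others. Both genes lie on the minus strand of chromosome XIII, and each carries 2 copies. The sites are shown because the mutant lacks the proteins known to bind this sequence; capitals mark the element.
NDI1 147 nt after the stop, chrXIII:28101-28130: atgatgttttaTTATTTATatattcccact
NDI1 269 nt after the stop, chrXIII:27979-28008: tatatctgtgaTTATTTATttcttcctctt
CYB2 36 nt after the stop, chrXIII:165479-165508: ttaaaaactttTTATTTATtcatacatata
CYB2 203 nt after the stop, chrXIII:165312-165341: tgttttatacaTTATTTATtcatttttttt
Ends of transcripts were not measured, so it is not known that the distal copies lie in the mRNA; the CYB2 gene ends 206 nt from SPC2, a gene on the opposite strand, and its distal copy extends past that gap. With a window of 150 nt, CYB2 kept 1 copy and NDI1 had 0. A match is a description of the letters and not evidence of binding.

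NDI1, the matrix-facing NADH dehydrogenase, differed between the strains in footprints after BPS. In wild type its footprints fell at 3 h and were higher again at 6 h, whereas mutant values at 3 h overlapped with those of the mutant at 0 h. Wild-type footprints at 0 h were 71.3, 65.4 and 125 CPM. At 3 h they were 27.5, 23.9 and 29.6 CPM, and at 6 h 128, 103 and 243 CPM. All wild-type libraries at 3 h lay below all those at 0 h, and the change from 0 h was -1.70 ± 0.38 (log2, SE; adjusted p = 0.0132, edgeR quasi-likelihood F test, adjusted by Benjamini and Hochberg's method over all features tested, as for every adjusted p below unless another tool is named). The rise from 3 h to 6 h was 2.54 (adjusted p = 0.000171). At 6 h against 0 h the wild-type change was 0.84 ± 0.37, with overlapping libraries, and was not called (SE, adjusted p = 0.0679). It was called without replicate 3 at 0 h (1.21, adjusted p = 0.0273) and without replicate 2 at 6 h (1.07, adjusted p = 0.0339). Total-count scaling called it too (0.9, adjusted p = 0.047).

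NDI1 footprints in the mutant were 89.9, 72.8 and 121 CPM at 0 h. They were 134, 98.6 and 120 CPM at 3 h, and 677, 622 and 268 CPM at 6 h. The 3 h libraries overlapped with those at 0 h and those at 6 h were all higher, by 2.46 ± 0.39 on the log2 scale (SE, adjusted p = 9.83e-05). Mutant footprints exceeded wild-type footprints by 2.12 ± 0.38 at 3 h (SE, adjusted p = 0.00732) and by 1.73 ± 0.38 at 6 h (SE, adjusted p = 0.00837), with no overlap between the strains at either time. Before BPS the difference was 0.11 ± 0.37 (SE, adjusted p = 1). NDI1 was the only member called between strains, 1 of 6 at 3 h and 1 of 6 at 6 h, where 0.809% and 4.68% of all tested features were called higher in mutant footprints.

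The 6 h strain difference in NDI1 was not called in a fit of those 2 groups alone (1.75, adjusted p = 0.129), and it was not called without wild-type replicate 2 at 6 h (1.5, adjusted p = 0.0542). The 3 h difference kept its call with any 1 library left out, but lost it without the libraries numbered 2 of both strains at 3 h (2.14, adjusted p = 0.0677). The test of the response itself, the change from 0 h in the mutant minus that in wild type, was not past the threshold. It was 2.01 ± 0.53 at 3 h (SE, adjusted p = 0.253) and 1.62 ± 0.53 at 6 h (SE, adjusted p = 0.127). DESeq2 called the 3 h response (2.03, adjusted p = 0.0341). The 6 h response was called without replicate 3 of wild type at 6 h (2.08, adjusted p = 0.0462) or of the mutant at 6 h (1.93, adjusted p = 0.0402). No member was called in these tests, against 0.282% of all features at 3 h and 2.97% at 6 h; 1 of 6 had an unadjusted p below 0.05 at each time.

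**Figure D1:**
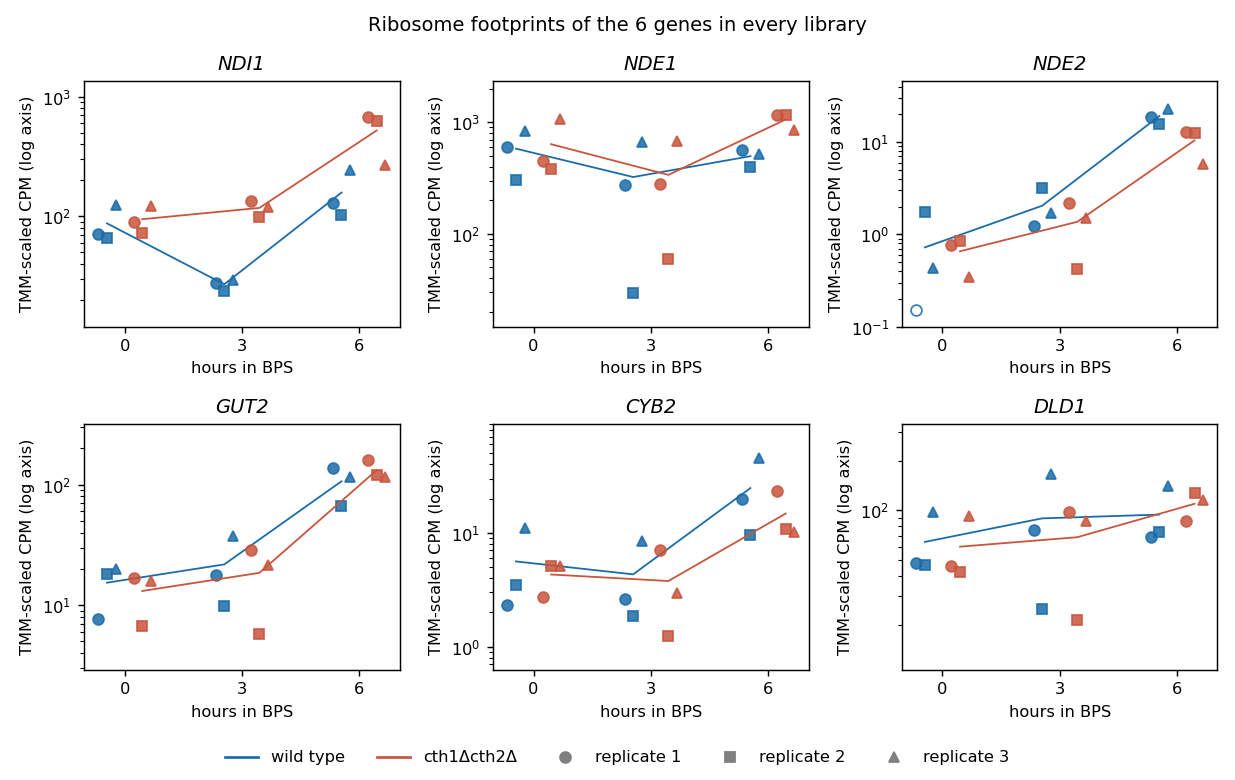
Ribosome footprints of each gene by hours in BPS, as TMM-scaled CPM on a log axis, 1 point per library with lines through group means; an open symbol at the bottom of the NDE2 panel is a library with 0 counts. In the NDI1 panel, the 3 wild-type libraries at 3 h, at 23.9 to 29.6 CPM, lie below every mutant library.

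NDI1 RNA also fell and rose again in wild type. It was 37.9, 28.9 and 63.8 CPM at 0 h. At 3 h it was 17.6, 13.1 and 7.02 CPM, and at 6 h it was 51.9, 50.6 and 56.9 CPM. The 3 h libraries lay below those at 0 h without overlap (-1.90 ± 0.49, SE, adjusted p = 0.027), and RNA rose from 3 h to 6 h by 2.12 (adjusted p = 0.0052). The RNA fall was not called without wild-type replicate 1 (adjusted p = 0.0524) or 3 (0.188) at 0 h, or without replicate 2 (0.0729) or 3 (0.139) at 3 h. The footprint fall was not called when wild-type replicate 3 at 0 h (adjusted p = 0.0869) or replicate 2 at 3 h (adjusted p = 0.0578) was left out.

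In the mutant, NDI1 RNA at 3 h was 57.0, 51.7 and 46.6 CPM, above every wild-type library of that time. The strain difference was 2.04 ± 0.51 with an adjusted p of 0.0817, and DESeq2 called it (2.05, adjusted p = 0.0199). At 6 h the mutant RNA was 143, 146 and 49.5 CPM, with replicate 3 below all 3 wild-type libraries, and the difference of 1.05 was not called (adjusted p = 0.527). No member was called between strains in RNA, at 0 h (0.0167% of features), at 3 h (0.45%) or at 6 h (0.783%). At an unadjusted p below 0.05 there were 0, 2 and 2 members. These were NDI1, higher in the mutant, and NDE2, lower in the mutant. The NDE2 difference was -2.06 at 3 h (unadjusted p = 0.0149, edgeR) and -1.08 at 6 h (unadjusted p = 0.0472, edgeR).

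Footprints per RNA were high for NDI1. TPM are counts per gene length, scaled to the same total in every library and without the TMM factor. On the log2 scale of TPM, the NDI1 footprint to RNA ratio was 1.73 in wild type at 0 h and 2.47 in the mutant at 6 h. These were percentiles 94.8 and 99.8 of 5290 features, and the lowest NDI1 percentile over the 6 conditions was 85.2. The rise of footprints over RNA in the mutant from 0 h to 6 h was 1.76 ± 0.61 (SE, adjusted p = 0.151) and was not called, except without mutant RNA replicate 1 at 0 h (2.2, adjusted p = 0.0315). Since the assays shared lysates, the same test was also made with the lysate as a block, which called NDI1 (1.57, adjusted p = 0.0228) and NDE1 (1.19, adjusted p = 0.0228). With all libraries and without that block, no member was called in any test of footprints over RNA, by edgeR or by DESeq2. Only NDI1 in the mutant at 6 h against 0 h had an unadjusted p below 0.05 (0.00742, edgeR). The share of all features called was 0.0378% at 3 h and 0.378% at 6 h against 0 h in wild type, 0% and 1.74% in the mutant, and 0%, 0% and 0.0189% between strains at 0 h, 3 h and 6 h. For the response difference between strains it was 0% at both times.

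NDE1, the main external NADH dehydrogenase by level, had no call in any contrast of either assay. Its RNA in wild type was 540, 573 and 998 CPM at 0 h. At 3 h the values were 252, 25.1 and 523 CPM, and at 6 h 400, 267 and 330 CPM. All 3 h libraries and all 6 h libraries lay below those at 0 h, and the changes of -1.39 ± 0.65 at 3 h (SE, adjusted p = 0.318) and -1.09 ± 0.66 at 6 h (SE, adjusted p = 0.203) were not called. With only the 2 groups compared in the fit, the 6 h change was called (-1.12, adjusted p = 0.0117).

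In the mutant, NDE1 RNA was 634, 627 and 1530 CPM at 0 h. It was 199, 92.4 and 496 CPM at 3 h and 778, 988 and 412 CPM at 6 h. Again all 3 h values were below those at 0 h, with a change of -1.80 (adjusted p = 0.141). From 3 h to 6 h the mutant gave 1.43 in RNA (adjusted p = 0.133) and 1.65 in footprints (adjusted p = 0.129). Same-numbered libraries deviated together in those groups, and with the replicate number as a block both were called, at 1.88 (adjusted p = 0.0292) and 2.29 (adjusted p = 0.012).

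NDE1 varied widely among the 3 h libraries. Wild-type footprints at 3 h were 275, 29.5 and 664 CPM, and mutant footprints 279, 59.6 and 674 CPM. Replicate 2 was the lowest of 3 in both strains and both assays. The same libraries were also the lowest of their groups in DLD1 and GUT2, at 25.0 and 21.4 CPM for DLD1 footprints in wild type and mutant. At 6 h, NDE1 footprints were 567, 398 and 524 CPM in wild type and 1170, 1150 and 850 CPM in the mutant; they did not overlap, and the difference of 1.09 ± 0.81 was not called (SE, adjusted p = 0.546).

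**Figure D2:**
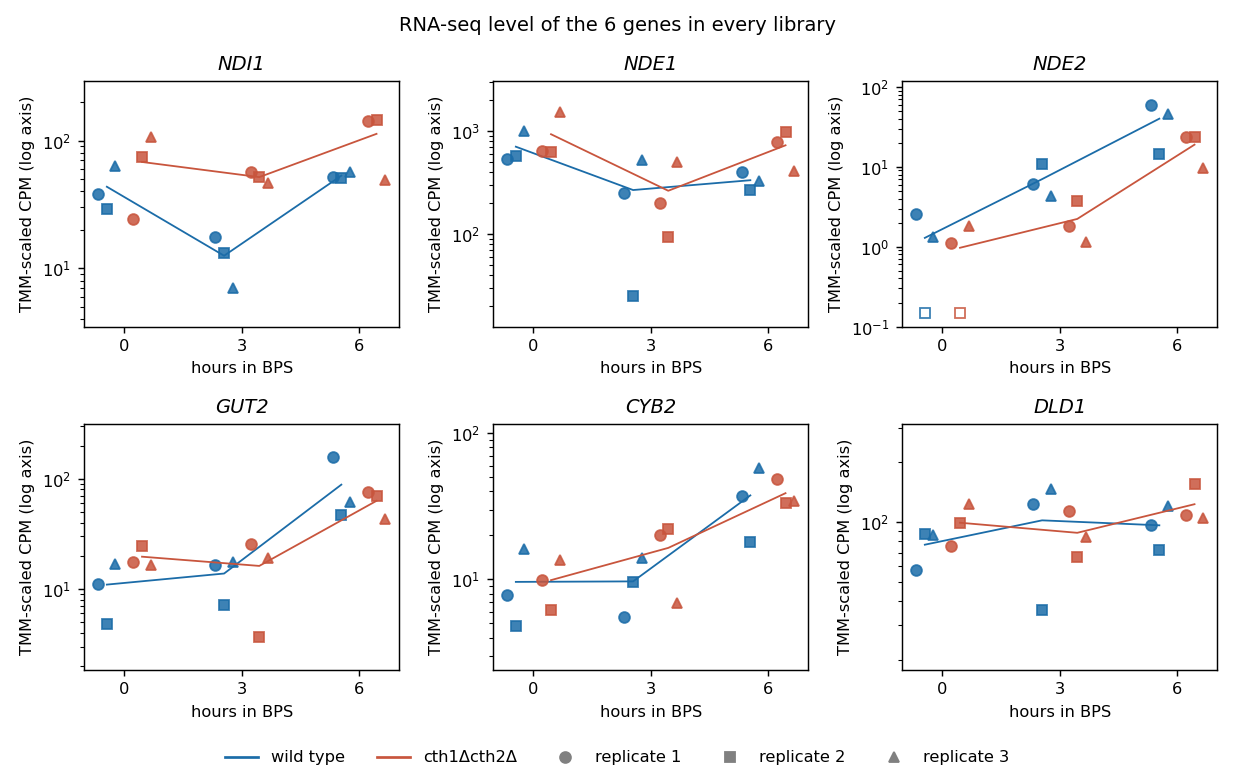
RNA-seq level of each gene by hours in BPS, as TMM-scaled CPM on a log axis, 1 point per library with lines through group means; open symbols at the bottom of the NDE2 panel are libraries with 0 counts. The square for replicate 2 is the lowest point at 3 h in both strains in the NDE1, GUT2 and DLD1 panels.

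NDE2, the second external NADH dehydrogenase, rose in both strains and both assays at 6 h. It was close to undetected at 0 h: wild-type RNA libraries had 14, 0 and 4 counts and mutant RNA libraries 1, 0 and 6. At 6 h the wild-type RNA libraries gave 59.3, 14.5 and 46.4 CPM, from 8, 4 and 301 counts, and the mutant libraries 23.8, 23.3 and 9.75 CPM. Every 6 h library stood above every 0 h library of its strain. The fitted change was 4.32 ± 0.65 in wild type (SE, adjusted p = 1.85e-05) and 3.57 ± 0.72 in the mutant (SE, adjusted p = 0.000436). With so few counts at 0 h these sizes depend on the prior count of the fit. All wild-type RNA libraries at 3 h also lay above those at 0 h, and the change of 1.73 ± 0.65 was not called (SE, adjusted p = 0.162).

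NDE2 footprints rose too. Counts at 0 h were 0, 2 and 8 in wild type and 2, 1 and 4 in the mutant. At 6 h they were 18.8, 15.8 and 23.0 CPM in wild type and 12.9, 12.7 and 5.74 CPM in the mutant, all above the 0 h libraries. The changes were 5.17 ± 0.70 (SE, adjusted p = 2.24e-05) and 4.44 ± 0.70 (SE, adjusted p = 8.74e-05). Mutant footprints at 6 h were all below wild type, by a difference of -0.77 ± 0.47 that was not called (SE, adjusted p = 0.437).

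GUT2, the glycerol-3-phosphate dehydrogenase, also rose by 6 h in both strains. Wild-type RNA was 11.1, 4.82 and 16.9 CPM at 0 h and 156, 47.0 and 61.9 CPM at 6 h. Mutant RNA was 17.6, 24.6 and 16.6 CPM at 0 h and 76.4, 69.8 and 42.7 CPM at 6 h. Neither pair of groups overlapped, and the changes were 2.61 ± 0.49 (SE, adjusted p = 0.000247) and 1.80 ± 0.47 (SE, adjusted p = 0.00465). At 3 h the changes were within the spread, at 0.17 in wild type (adjusted p = 0.921) and 0.00 in the mutant (adjusted p = 0.999).

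GUT2 footprints rose from 7.75, 18.3 and 20.1 CPM to 137, 66.5 and 117 CPM in wild type. In the mutant they rose from 16.7, 6.77 and 15.9 CPM to 159, 121 and 116 CPM. Again no 6 h library overlapped with 0 h, with changes of 2.74 ± 0.57 (SE, adjusted p = 0.000917) and 3.27 ± 0.58 (SE, adjusted p = 0.000244). The strains at 6 h overlapped, and their difference of 0.32 had a 2-SE interval from -0.71 to 1.35.

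CYB2, the L-lactate dehydrogenase, rose by 6 h from a low level. Its RNA was 7.84, 4.82 and 16.2 CPM at 0 h in wild type and 37.0, 18.1 and 57.6 CPM at 6 h, a change of 1.92 ± 0.50 (SE, adjusted p = 0.00473). In the mutant it was 9.92, 6.15 and 13.6 CPM at 0 h and 48.8, 33.4 and 34.5 CPM at 6 h, a change of 1.76 ± 0.50 (SE, adjusted p = 0.00793). No library overlapped between the times. The wild-type values came from 43, 1 and 49 counts at 0 h and 5, 5 and 374 counts at 6 h. The gap between 16.2 CPM at 0 h and 18.1 CPM at 6 h thus rests on few counts. The wild-type call was lost without replicate 3 at 6 h (1.23, adjusted p = 0.223), the deepest of its group.

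CYB2 footprints at 0 h were 2.33, 3.49 and 11 CPM in wild type, from 3, 4 and 204 counts. At 6 h they were 19.7, 9.48 and 45.1 CPM, a change of 1.86 ± 0.71 (SE, adjusted p = 0.0375). Replicate 3 was the highest at both times, and replicate 2 at 6 h lay below replicate 3 at 0 h. The call was lost without replicate 3 at 6 h (1.05, adjusted p = 0.252), or without replicate 1 (adjusted p = 0.119) or 2 (adjusted p = 0.1) at 0 h. In the mutant, footprints went from 2.71, 5.08 and 5.12 CPM to 23.4, 10.8 and 10.1 CPM without overlap, and the change of 1.84 ± 0.76 was just short of the threshold (SE, adjusted p = 0.0525). It was called by DESeq2 (1.82, adjusted p = 0.0341), in a fit of those 2 groups alone (1.80, adjusted p = 0.0101) and with total-count scaling (2.03, adjusted p = 0.0345).

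CYB2 carries as many TTATTTAT copies as NDI1, and had no called strain difference. Its mutant minus wild-type difference in footprints was -0.34 at 3 h (2-SE interval -1.82 to 1.15) and -0.67 at 6 h (-2.02 to 0.69), and neither was called. Its 3 h counts were low, at 7 to 71 in footprints, and a difference of the size seen in NDI1 at 3 h lies outside the 3 h interval, while differences of up to 1.15 lie inside it. Of the 384 genes with the element that were tested in footprints, 27 (7.03%), NDI1 among them, were called higher in the mutant at 3 h, against 16 of 4931 other features (0.324%). At 6 h these shares were 13% and 4.04%. In RNA they were 4.27% and 0.143% at 3 h and 3.02% and 0.392% at 6 h. A role of the element was not tested.

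DLD1, the D-lactate dehydrogenase, had no call in any contrast. Its RNA group means ran from 76.8 to 123 CPM and its footprint group means from 60.1 to 109 CPM. The largest change against 0 h was 0.84 ± 0.60 in mutant footprints at 6 h (SE, adjusted p = 0.259), where libraries of 85.6, 128 and 115 CPM overlapped with 46.1, 42.3 and 91.8 CPM at 0 h. Changes of more than 2.05 on the log2 scale lie outside that 2-SE interval.

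**Figure D3:**
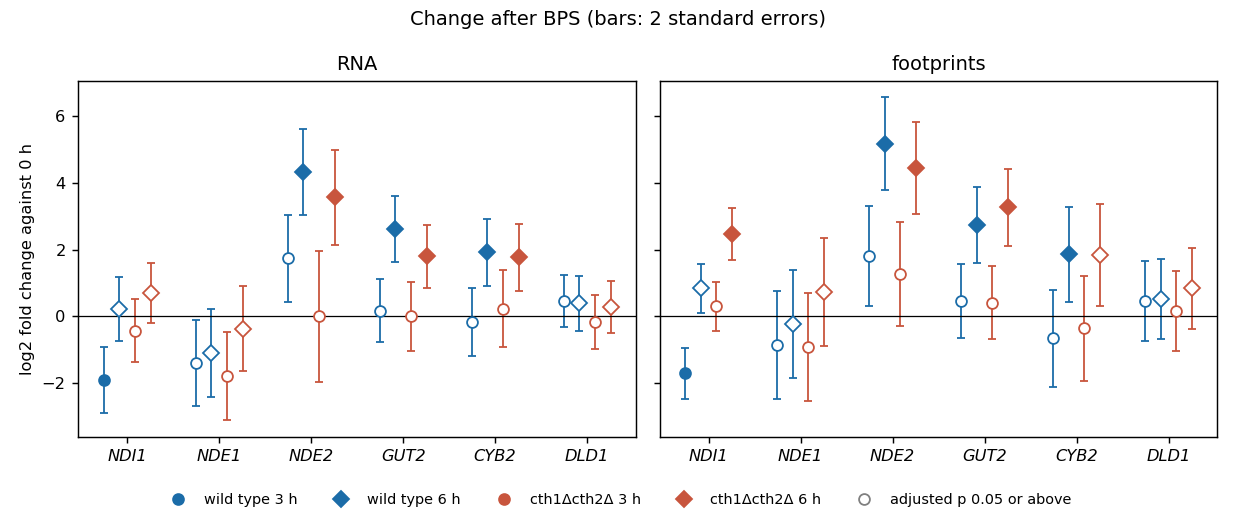
Log2 change against 0 h of each gene at 3 h (circles) and 6 h (diamonds) in wild type (blue) and cth1Δcth2Δ (red), in RNA and footprints; bars are 2 standard errors, filled symbols are past an adjusted p of 0.05 and white ones are not. NDE2 and GUT2 are filled at 6 h in all 4 cases, and the fall of NDI1 in wild type is the filled point at 3 h in each panel.

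Counted over the genes, the calls fell in these groups. At 3 h against 0 h, 1 of 6 was lower in wild-type RNA (1.48% of all features) and 1 of 6 in wild-type footprints (1.81%), in both cases NDI1. In the mutant at 3 h none was called, against 3.15% of features in RNA and 3.69% in footprints, and 1 and 0 members had an unadjusted p below 0.05; DESeq2 called 0 in both. At 6 h against 0 h, 3 of 6 were higher in wild-type RNA (19.2%) and 3 in wild-type footprints (28.5%), the same 3, NDE2, GUT2 and CYB2. Mutant RNA had 3 higher (17.8%), again NDE2, GUT2 and CYB2, and mutant footprints 3 (26.2%), NDE2, GUT2 and NDI1.

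From 3 h to 6 h, 4 of 6 rose in wild-type RNA (11.5%) and 4 in wild-type footprints (21.7%), NDI1, NDE2, GUT2 and CYB2 in each. In the mutant 3 rose in RNA (7.46%) and 4 in footprints (17.3%), where NDI1 joined NDE2, GUT2 and CYB2. The CYB2 rise in wild type was not called without replicate 3 at 6 h, in RNA (1.41, adjusted p = 0.192) or footprints (1.71, adjusted p = 0.0845), nor in footprints without replicate 1 at 3 h (2.21, adjusted p = 0.0587). In mutant RNA it was not called without replicate 3 at 3 h (0.89, adjusted p = 0.332), or replicate 1 (1.37, adjusted p = 0.127) or 3 (1.67, adjusted p = 0.0606) at 6 h. In mutant footprints it was not called without replicate 2 (1.68, adjusted p = 0.116) or 3 (2.06, adjusted p = 0.0958) at 3 h, or replicate 1 at 6 h (1.62, adjusted p = 0.165). Without mutant RNA replicate 3 at 3 h, NDE2 (2.87, adjusted p = 0.059) and GUT2 (1.88, adjusted p = 0.0506) were not called either.

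Between strains before BPS no member was called in footprints, against 0.0188% of features, and 0 members had an unadjusted p below 0.05. For the strain difference of the RNA response no member was called at 3 h (0.0167%) or 6 h (0.0333%), and 1 and 0 had an unadjusted p below 0.05. DESeq2 called 0 members in these last 3 tests.

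**Figure D4:**
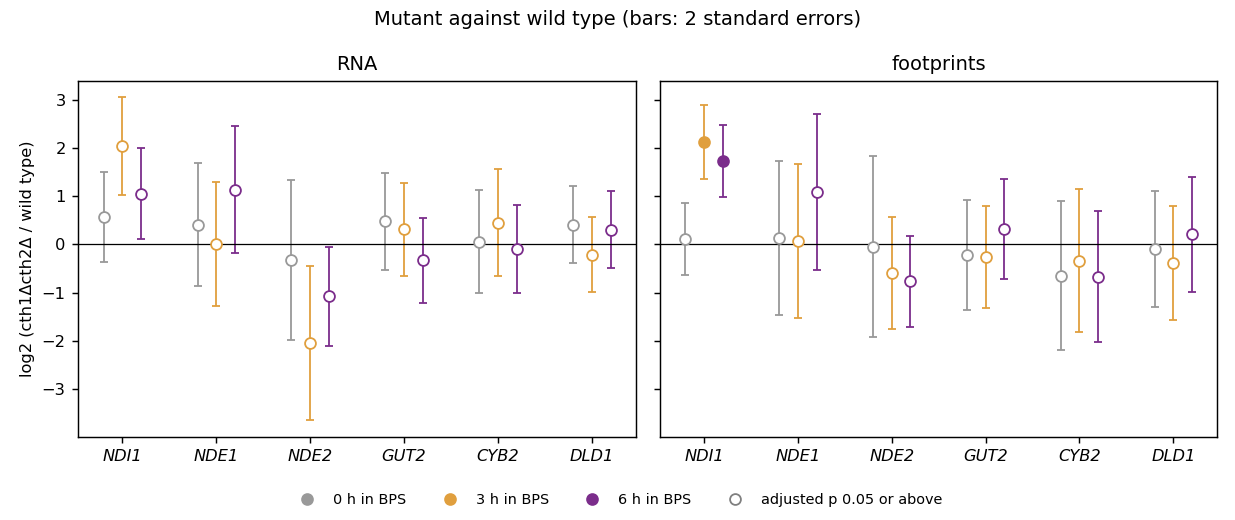
Log2 difference between cth1Δcth2Δ and wild type for each gene at 0 h (grey), 3 h (orange) and 6 h (purple), in RNA and footprints; bars are 2 standard errors and filled symbols are past an adjusted p of 0.05. NDI1 footprints at 3 h and 6 h are the only filled points.

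Per unit length, NDE1 had the highest mean of the 6 in every group. Mean NDE1 RNA ran from 97.9 to 406 TPM and mean footprints from 166 to 715 TPM. At 0 h the wild-type RNA order was NDE1 (207 TPM), DLD1 (21.5), NDI1 (14), GUT2 (2.79), CYB2 (2.69) and NDE2 (0.392); DLD1 overlapped with NDI1, and GUT2 with CYB2. By 6 h in wild type, NDE1 (191 TPM) was still apart from the rest, while DLD1 (53), GUT2 (42.6), NDI1 (33.7), NDE2 (23.1) and CYB2 (20.4) each overlapped with the next. TPM order the genes within a group and do not measure change over time, since they lack the TMM factor. In TMM-scaled CPM, mean wild-type RNA went from 704 at 0 h to 333 at 6 h for NDE1. For DLD1 it went from 76.8 to 96.2, and for NDI1 from 43.5 to 53.1. At 3 h NDE1 overlapped with the next gene in all 4 groups. In replicate 2 of that time, DLD1 was above NDE1 in wild-type RNA (11.3 against 8.32 TPM) and NDI1 was above it in mutant footprints (54.9 against 30.4 TPM). In mutant footprints at 6 h, NDI1 reached 380 TPM, second to NDE1 at 715 TPM and without overlap with it or with GUT2 at 77.8 TPM.

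The promoters of NDE2, GUT2 and CYB2, which moved together at 6 h, are shown from 250 to 101 bases before the start codon in R64. AGGGG, on either strand (CCCCT), is the core of the stress response element of the yeast factors Msn2 and Msn4. It was searched after these genes had been seen to rise, in the window from 250 bases before to 50 after the start codon; capitals mark it, and in CYB2 also CCAAT, the core bound by the Hap complex.
NDE2 chrIV:302961-303110, plus strand: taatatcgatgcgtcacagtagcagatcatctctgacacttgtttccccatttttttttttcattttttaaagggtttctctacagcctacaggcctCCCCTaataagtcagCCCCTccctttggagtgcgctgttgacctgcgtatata
GUT2 chrIX:53809-53958, minus strand: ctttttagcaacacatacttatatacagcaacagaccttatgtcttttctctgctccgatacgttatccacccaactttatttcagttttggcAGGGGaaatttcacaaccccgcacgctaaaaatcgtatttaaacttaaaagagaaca
CYB2 chrXIII:167409-167558, minus strand: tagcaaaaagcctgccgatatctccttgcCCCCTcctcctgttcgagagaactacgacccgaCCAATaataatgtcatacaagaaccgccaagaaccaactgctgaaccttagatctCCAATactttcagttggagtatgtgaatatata
AGGGG or its complement occurred 2 times in NDE2 and 1 time each in GUT2, CYB2 and NDI1, and not in NDE1 or DLD1, against 21.6% of all promoters of this length. CCAAT on either strand occurred in NDI1, NDE1, CYB2 and DLD1 and in 43.3% of all promoters. These matches are descriptions of the letters.

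By pattern over the 36 libraries, after centring each assay on its own mean, the features most like NDE2 were SSA4 (a heat-inducible Hsp70, Pearson r = 0.95), UIP4 (0.95) and SSE2 (0.94), among 4940. Those most like GUT2 were PLN1 (0.9), MCR1 (mitochondrial NADH-cytochrome b5 reductase, 0.89) and UBC5 (0.87), and for CYB2 they were MCR1 (0.86), YPC1 (0.82) and PLN1 (0.81). NDI1 was most like KGD1 (a subunit of 2-oxoglutarate dehydrogenase, 0.9), ACO1 (aconitase, 0.89) and WTM1 (0.88). NDE1 was most like COX15 (0.83), CYT1 (cytochrome c1, 0.82) and COX4 (0.82), and DLD1 like ERG29 (0.8), HXT4 (0.78) and HXT3 (0.75). Between members, r was 0.8 for GUT2 with CYB2 and 0.79 for NDE2 with GUT2, and -0.01 for NDE1 with NDE2. All genes of a library share its depth and scaling, which differed widely between libraries, and these values carry no test.

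Succinate dehydrogenase is the other main route into quinone. Of 8 listed genes (succinate dehydrogenase and its paralogs, and the proline dehydrogenase PUT1), 4 were higher in mutant footprints at 3 h (median 2.25, against -0.04 over all features, of which 0.809% were higher). In wild-type footprints 4 fell at 3 h, as did 1.81% of all features. The 4 higher in the mutant were the succinate dehydrogenase subunits SDH2 (3.46), SDH1 (3.23), SDH4 (2.98) and SDH3 (2.23). At 6 h 5 were higher, against 4.68% of all features, with YJL045W (3.54), a close copy of SDH1 whose reads may be shared with it, besides SDH2 (4.19), SDH1 (3.42) and SDH4 (2.85). SHH3, SHH4 and PUT1 were not called and had lower means in the mutant. Their mutant footprints at 6 h were 1.48, 3.94 and 13.2 CPM, against 12.5, 12.1 and 27.7 CPM in wild type. In RNA at 6 h, 4 were higher in the mutant and 1 was lower, against 0.566% and 0.216% of all features.

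GUT2 shares its substrate with the genes of glycerol metabolism. In wild-type footprints at 6 h, 6 of 9 tested were higher (median 1.87, against 0.09 over all features, of which 28.5% were higher), led by the aldo-keto reductase GCY1 (5.24), the dihydroxyacetone kinase DAK2 (5.15), the glycerol-3-phosphatase GPP2 (3.00) and GPD1 (2.45), the cytosolic glycerol-3-phosphate dehydrogenase of the shuttle. In mutant footprints 5 of 9 rose, against 26.2% of all features, led by GCY1 (4.99), GUT1 (3.44, the glycerol kinase), GPP2 (2.83) and GPD1 (2.71), and GPP1, a paralog of GPP2, fell (-1.29). A lactate list had 3 tested genes, JEN1 (the lactate permease), DLD2 and DLD3. In wild-type footprints at 6 h 1 of 3 rose, DLD3 (1.11), near the 28.5% of all features. In mutant footprints 1 of 3 rose, JEN1 (3.68), against 26.2% of all features.

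In footprints at 6 h, wild-type cells had 28.5% of all features called up and 24.3% called down, and for mutant cells these shares were 26.2% and 24.5%. A list of 13 genes for NAD-linked dehydrogenases included the alcohol dehydrogenases ADH1, ADH2 and ADH3. Of these 13, 5 rose and 1 fell in wild-type cells, and in mutant cells 8 rose and 1 fell. Mean ADH1 footprints were 13900 CPM at 0 h and 5250 CPM at 6 h in wild type. In the mutant they were 14300 and 4060 CPM. In the mutant the largest rises were ALD4 (4.39, mitochondrial aldehyde dehydrogenase), IDH1 (3.99) and IDH2 (3.70, both isocitrate dehydrogenase) and MDH1 (2.89, malate dehydrogenase). Their mean wild-type footprints were also higher at 6 h than at 0 h. ALD4 went from 41.9 to 1450 CPM and IDH1 from 267 to 2600 CPM. IDH2 went from 175 to 1450 CPM and MDH1 from 191 to 670 CPM. Cytochrome c receives the electrons of CYB2 and DLD1. A list of 7 genes held its 2 forms, CYC1 and CYC7, with CYT1, RIP1, CCP1, MCR1 and CYB5. Of these 7, 2 were higher, a share close to that of all features, and 4 were lower in wild type. CYC1 (the main cytochrome c) was at -4.75 and CYC7 (its isoform) at 2.73. Among 11 regulators of respiratory and lipid genes, 4 were higher and 2 lower in wild type, shares near those of all features; the largest changes were those of CAT8 (3.97), HAP1 (3.94) and ADR1 (3.59).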

How the data were processed

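The deposited files give whole-number counts per feature, with a length, for 36 libraries. The submitters' processing notes name cutadapt 3.4, Bowtie 1.1.2, STAR 2.7.9a and build R64; the counting program and its handling of strand and of multimapping reads are not given in the sources used here. No 28-mer of any of the 6 coding sequences occurs in another coding sequence.

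Counts were tested with edgeR 4.0.16 (R 4.3.3): TMM scaling within each assay, a low-count filter with a minimum of 10, 1 quasi-likelihood fit over the 18 libraries of an assay, and Benjamini-Hochberg adjustment over 6006 RNA or 5315 footprint features, with a threshold of 0.05. All 6 genes passed. Footprint over RNA change was tested in a joint fit of 36 libraries and 5290 features. SE is the change fitted without a prior count over the square root of F. TPM used the deposited lengths and no TMM factor. DESeq2 1.42.0, RLE and total-count scaling, no filter, fits of only the groups compared, blocks, thinning and left-out libraries were alternatives. On simulated data for wild type at 6 h against 0 h, changes of 2 on the log2 scale were recovered in 80% (RNA, 6006 features), 83% (footprints, 5315) and 49% (footprints over RNA, 5290), and changes of 1 in 11%, 27% and 3%. In each simulation 100 features were changed by each size, all above a minimum expected count. It gave 97 calls in RNA and 114 in footprints, where the real contrast had 2154 and 2810. These rates are therefore not the power of the real contrast or for low genes.

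The genes and lists were chosen with earlier results of these data known. Listed genes were named by size of change among those called, up to 4 a list and contrast, and similar genes by the 3 highest correlations. Same-numbered libraries deviated together (every pair above 0.1) in RNA for mutant 6 h with 0 h and with 3 h, and for the strains at 0 h and 6 h; in footprints they did for 3 h with 0 h in each strain, mutant 6 h with 3 h, and the strains at 3 h. Both assays used the same lysates, per the labels' protocols; the deviations of a lysate's 2 libraries correlated at 0.02 to 0.7.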

Additional observations from a re-analysis of the deposited data

How the results depend on the processing

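Of 259 counts of members called under alternatives other than leaving out 1 library, 232 equalled the reported ones and 246 were within 1.5 times of them; the others follow. The called members of wild-type RNA at 3 h went from 1 to 0 on thinning to the smallest library, without the libraries under 250000 counts, and without the libraries numbered 2 of both strains at 3 h (chosen after seeing the data); without those last, wild-type footprints at 3 h and the strain difference at 3 h also went to 0. Thinning left 1 in wild-type RNA at 6 h and 0 in mutant RNA from 3 h to 6 h. Total-count scaling gave 5 in mutant RNA at 6 h against 0 h, while it moved the median of all features from 0.01 to 0.71. DESeq2 gave 1 in the RNA strain difference at 3 h and 1 in the footprint response at 3 h, where the fit of only the groups compared also gave 1; that fit gave 0 for the footprint strain difference at 6 h. The lysate replicate block gave 2 in mutant footprints over RNA at 6 h. The causes were not tested. No called change reversed.

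With 1 library left out, the count ranged 0 to 1 (wild-type 3 h, RNA and footprints; footprint strain difference and response at 6 h; mutant footprints over RNA at 6 h), 2 to 3 (wild-type RNA at 6 h), 3 to 4 (wild-type RNA and footprints and mutant footprints from 3 h to 6 h; mutant RNA at 6 h), 2 to 4 (wild-type footprints at 6 h) and 0 to 3 (mutant RNA from 3 h to 6 h, 0 without replicate 3 at 3 h); it stayed at 3 in mutant footprints at 6 h, at 1 in the footprint strain difference at 3 h, and at 0 elsewhere. The replicate block called CYB2 in mutant footprints at 6 h (2.21, adjusted p = 0.0069) and changed no other call besides the NDE1 ones given. In that CYB2 comparison the deviations of same-numbered libraries correlated at 0.04 to 0.24, so not every pair was above 0.1. RNA depth limits the low genes: thinned to the smallest library, NDE2 and CYB2 lost their wild-type 6 h calls.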
